A study of Homo sapiens with 3 samples.

Results

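The regions described are the p300/CBP ChIP-seq peaks of at least 150 bp that reached the promoter of a protein-coding gene, a promoter being the 3 kb centred on the gene-level transcription start site (TSS) in hg19. This TSS is the outermost annotated start of a gene, so other starts of the same gene can lie elsewhere. Of the 82901 peaks listed for siCTL, 13720 were at least 150 bp wide on chromosomes 1 to 22 and X, and 700 of these (5.10%, 95% Wilson interval 4.75 to 5.48) were promoter peaks. Of the 39320 peaks listed for siFra-1, 11736 passed the same filters and 595 (5.07%, 4.69 to 5.48) were promoter peaks, while the promoter windows covered 1.80% of these chromosomes. The cells were MDA-MB-231, an established human line of triple-negative breast cancer, which had received either control siRNA (siCTL) or a mix of siRNAs against Fra-1 (siFra-1) at 4.5 nM for 72 h before fixation for 7 min and immunoprecipitation with an antibody that recognises both p300 and CBP. Fra-1 is the product of FOSL1 and belongs to the Fos proteins, which need a Jun partner to form AP-1 dimers. Replicate immunoprecipitations were pooled into 1 library per condition, so no difference between conditions has a replicate error. All intervals are at 95%, cover the counting of peaks or genes only, and treat neighbouring peaks as independent. An input sample was not analysed here, the lists do not show how far Fra-1 was depleted, and read depth is unknown.

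p300 and CBP are closely related lysine acetyltransferases that bind no specific DNA sequence themselves and are brought to chromatin by transcription factors. They act as coactivators, acetylating histones and other proteins, and are best known as marks of active enhancers, although they also occupy active promoters. Many promoters lie in CpG islands, GC-rich stretches that are often bound by factors of the SP/KLF, ETS and NFY families, whereas AP-1 and TEAD factors, the latter working with the Hippo pathway effectors YAP and TAZ, are known mainly for binding distant elements.

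Stretches of 8 promoter peaks are shown to give the kind of sequence that was occupied, with matches to the motifs searched in capitals. They come from the GRCh37 plus strand and lie outside annotated exons. The first pair is from genes with peaks in both lists. ECT2 (chr3:172468322-172468471, 5′ of the TSS) carries a pair of NFY boxes, the second abutting an SP/KLF match, and ANKRD1 (chr10:92680922-92681071, 5′ of the TSS) a pair of TEAD matches.
ECT2: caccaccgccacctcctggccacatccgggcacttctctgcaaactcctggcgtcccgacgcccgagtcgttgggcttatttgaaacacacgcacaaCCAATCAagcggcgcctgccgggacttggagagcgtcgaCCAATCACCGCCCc
ANKRD1: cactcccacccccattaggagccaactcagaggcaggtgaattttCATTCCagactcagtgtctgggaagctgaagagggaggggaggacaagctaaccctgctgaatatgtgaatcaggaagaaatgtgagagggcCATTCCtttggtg
The next pair is from peaks listed for siCTL only. ZNF185 (chrX:152064922-152065071, 5′ of the TSS) has TATA and C/EBP matches, and STK40 (chr1:36852232-36852381, 5′ of the TSS) an AP-1 match near each end.
ZNF185: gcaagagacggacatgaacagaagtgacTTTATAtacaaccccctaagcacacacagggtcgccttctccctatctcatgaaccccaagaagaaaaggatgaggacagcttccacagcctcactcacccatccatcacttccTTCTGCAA
STK40: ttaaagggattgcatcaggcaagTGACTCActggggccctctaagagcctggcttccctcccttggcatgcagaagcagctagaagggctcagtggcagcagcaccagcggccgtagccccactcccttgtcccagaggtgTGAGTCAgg
The third pair is from peaks listed for siFra-1 only. LGALS8 (chr1:236681802-236681951, intronic) has RUNX, TEAD and C/EBP matches in an AT-rich stretch, and ITGB2 (chr21:46350462-46350611, intronic) has 3 SP/KLF matches.
LGALS8: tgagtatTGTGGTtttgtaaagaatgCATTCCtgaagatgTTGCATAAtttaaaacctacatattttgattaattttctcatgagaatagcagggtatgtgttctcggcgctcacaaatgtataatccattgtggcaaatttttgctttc
ITGB2: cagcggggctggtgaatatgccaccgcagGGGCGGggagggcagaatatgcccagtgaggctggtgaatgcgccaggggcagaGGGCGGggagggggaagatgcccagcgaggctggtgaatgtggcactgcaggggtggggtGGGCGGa
The last pair, chosen after the values were seen because both genes had peaks in both conditions and hold an AP-1 match, is from CXCL8 (chr4:74606102-74606211, just 5′ of the TSS) and from an intron of FOSL1 itself (chr11:65666852-65666961), where an E-box follows the AP-1 match.
CXCL8: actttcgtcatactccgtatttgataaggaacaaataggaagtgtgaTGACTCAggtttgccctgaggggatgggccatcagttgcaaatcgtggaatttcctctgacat
FOSL1: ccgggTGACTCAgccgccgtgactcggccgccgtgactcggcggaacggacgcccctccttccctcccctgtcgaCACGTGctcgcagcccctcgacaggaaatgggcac

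The peaks reached the promoters of 1109 of 20098 protein-coding genes, 742 in siCTL and 607 in siFra-1. Of these, 240 genes had a promoter peak in both lists (1.19% of all genes), 502 in siCTL only (2.5%) and 367 in siFra-1 only (1.83%). Absence from a list did not always mean an empty promoter: 100 of the 502 siCTL-only genes (19.9%, 16.7 to 23.6) had a siFra-1 peak of 100 bp in the promoter window, and 129 of the 367 siFra-1-only genes (35.1%, 30.4 to 40.2) had such a siCTL peak. These narrow peaks need not overlap the wider ones, and siCTL listed more promoter peaks of 100 bp than siFra-1. No peak of any width was listed in the other condition for 402 and 238 genes, respectively. Most of the genes seen in 1 list rested on little, as 343 siCTL-only and 192 siFra-1-only genes had a single peak of 150 bp, and 66 and 108 had 250 bp or more in all. The threshold on width mattered, since 404 siCTL and 248 siFra-1 promoter peaks were exactly 150 bp wide and a further 2594 and 1308 at 100 bp fell just below it.

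Promoter peaks were fewer but wider in siFra-1. The ratio of siFra-1 to siCTL promoter peaks was 0.850 (0.761 to 0.9495), against 0.856 (0.834 to 0.878) for the peaks outside promoters. It was 0.614 (0.522 to 0.721) for peaks of 150 bp, 0.815 (0.617 to 1.07) at 200 bp, 1.41 (1.16 to 1.72) at 250 bp and over and 2.79 (1.73 to 4.65) at 500 bp and over, where 24 siCTL and 67 siFra-1 peaks stood. Peaks of at least 250 bp made up 25.3% of siCTL and 42.0% of siFra-1 promoter peaks, a difference of 16.7 points (11.6 to 21.8). The same shift ran through the rest of the lists, with 26.6% of siCTL and 51.3% of siFra-1 peaks outside promoters at or above 250 bp. A fixed threshold on scaled signal set the width of every peak, so scaling and occupancy cannot be told apart here. The widest promoter peak was 800 bp in siCTL and 1100 bp in siFra-1, below the widest elsewhere, which were 1400 and 2250 bp.

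Among the 240 genes with promoter peaks in both lists, the summed width of the peaks reaching the promoter was larger in siFra-1 at 127, smaller at 64 and equal at 49. The medians were 300 bp in siCTL and 350 bp in siFra-1, and the median difference was 50 bp. The peaks of 206 genes overlapped between the lists, while at 34 genes they lay at different places of the same promoter. Single promoter peaks that paired one to one between the lists were wider in siFra-1 in 98 of 187 cases (52.4%), compared with 58.6% of the pairs outside promoters, a difference whose interval held 0 (-6.24 points, -13.5 to 0.970).

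**Figure D1:**
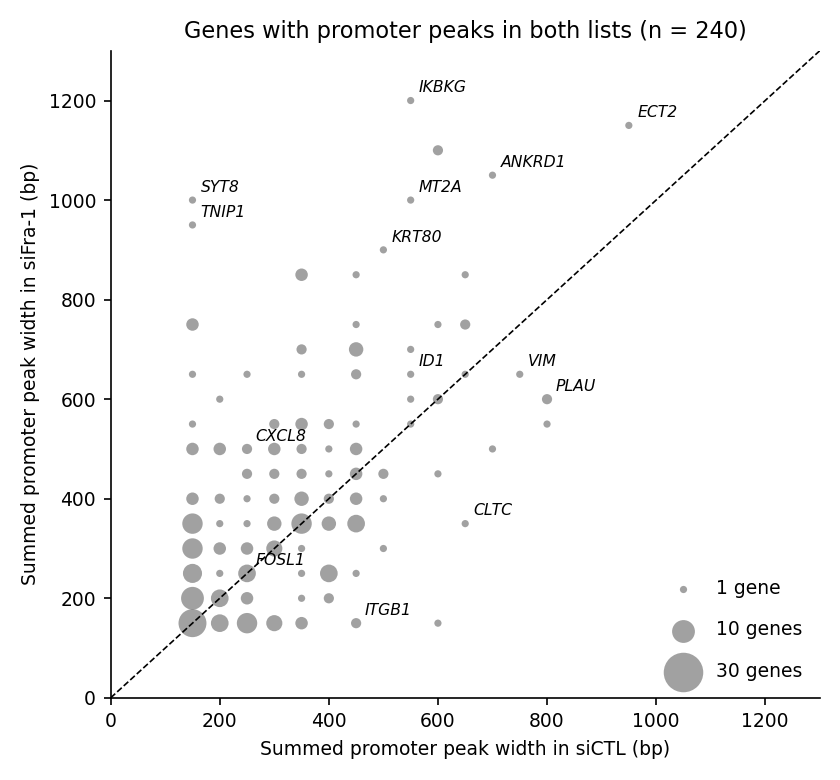
Summed width of the promoter peaks in siCTL (x axis, bp) against siFra-1 (y axis, bp) for the 240 genes with a promoter peak in both lists; the area of a point gives the number of genes at that pair of widths and the dashed line marks equal widths. The 127 genes above the line were wider in siFra-1 and the 64 below it were narrower, and ECT2 and IKBKG lie at the far end of the siFra-1 axis.

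The widest promoters of the genes in both lists belonged to varied genes. ECT2, a nucleotide exchange factor needed in cytokinesis, had 950 bp in siCTL and 1150 bp in siFra-1, in 3 peaks in each list, centred at -1245, -195 and 305 bp from the TSS in siCTL and at -1295, -245 and 355 bp in siFra-1. ANKRD1, a classical target of YAP and TEAD, went from 700 to 1050 bp, with 1 peak of 700 bp (siCTL) or 900 bp (siFra-1) centred at -308 bp and a further siFra-1 peak of 150 bp inside the gene. IKBKG, which encodes the regulatory subunit of the IkB kinase complex, went from 550 to 1200 bp. Its 450 bp siFra-1 peak at the TSS, which holds an AP-1 match, had no siCTL overlap. POLR2L and TSPAN4 shared 1 peak that grew from 600 to 1100 bp, and MT2A, a zinc-binding metallothionein, went from 550 to 1000 bp. TAGLN2, an actin-binding protein, was the exception among these, with 800 bp in siCTL and 600 bp in siFra-1. MISP, an actin-bundling protein of the spindle, had 650 and 850 bp, and HLA-DMA and BRD2, neighbours that share their peaks, 650 and 750 bp.

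The largest gains in width were at SYT8, a synaptotagmin, from 150 to 1000 bp, and at TNIP1, a binding partner of the NF-kB inhibitor A20, from 150 to 950 bp. Neither of the siFra-1 peaks of TNIP1, centred at -264 and -839 bp, overlapped the siCTL peak, which lay in the intron at 561 bp. SPAAR and the interferon-induced IFIT3 each went from 150 to 750 bp in a peak that was overlapped by the siFra-1 one. The largest losses were smaller than these gains. ITGB1, the integrin beta 1 chain, fell from a 450 bp peak over its outermost annotated start with AP-1 and RUNX matches to 150 bp within that peak, a stretch without any of the motifs. NR2E3, a nuclear receptor, fell from 450 to 150 bp, keeping the end with the AP-1 match, CLTC, the clathrin heavy chain, from 650 to 350 bp, and CLDN6, a tight junction claudin, from 800 to 550 bp. TAF11L9, at 600 and 150 bp, is 1 of a cluster of near-identical copies, so reads there are uncertain.

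Genes in siCTL only included few wide promoters. ZNF185, an actin-associated LIM domain protein, had 550 bp, and STK40, a kinase-like gene, CHKA, a choline kinase, and KIF18B, a mitotic kinesin, had 500 bp each. KRTAP4-9, from a family of near-identical keratin-associated genes, and C19orf33 had 450 bp, and MARCHF4, a membrane ubiquitin ligase, and CMTR1, an mRNA cap methyltransferase, had 400 bp. Except at CHKA and CMTR1, a siFra-1 peak of 100 bp was listed in each of these promoters, so that only those 2 of the 8 had no siFra-1 peak at all. Searched over the whole peak, AP-1 matches lay in the peaks of STK40, KRTAP4-9 and C19orf33.

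Genes in siFra-1 only reached larger widths. The galectin gene LGALS8 and ITGB2, the beta chain of the leukocyte integrins, had 850 bp each, the first in 2 peaks centred at -623 and 502 bp and the second in 3 peaks centred at 427, 677 and 1327 bp, inside the gene. KLHL5 had 750 bp, the aldehyde dehydrogenase gene ALDH3A1 700 bp, and CSF2, which encodes the cytokine GM-CSF, 650 bp, of which 500 bp covered the TSS. AGTPBP1, a tubulin deglutamylase, had 650 bp, and the histamine methyltransferase gene HNMT and VIPR1, a receptor for vasoactive intestinal peptide, had 600 bp each. A siCTL peak of 100 bp was listed at ITGB2, CSF2, AGTPBP1 and HNMT and none at LGALS8, KLHL5, ALDH3A1 and VIPR1. Searched over the whole peak, AP-1 matches lay in the peaks of ALDH3A1, AGTPBP1, HNMT and VIPR1.

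Of the 33 protein-coding genes used by the study as viewpoints for chromatin contacts, 10 had a promoter peak. Of 8 viewpoints that Fra-1 raised and that had a contact bound by Fra-1, FOSL1 itself was the 1 gene with a promoter peak. Its intronic peak was 250 bp wide in both lists and lay 100 bp nearer the TSS in siFra-1, where it no longer covered the AP-1 match printed above. Of 11 viewpoints lowered by Fra-1 and with such a contact, 6 had a promoter peak. At 150 bp and over, these were all wider in siFra-1 or present there alone. A promoter peak was present at 1109 of all 20098 protein-coding genes, and 1.83% of all genes were in siFra-1 only. Wider was also the commoner direction among all 240 genes in both lists, with 127 wider in siFra-1 and 64 narrower. The keratin gene KRT80 went from 500 to 900 bp, ID1, an inhibitor of basic helix-loop-helix factors, from 550 to 650 bp, and CXCL8, which encodes interleukin 8, from 250 to 500 bp. LRP10 had 450 bp in siFra-1 only, the Notch target HES1 200 bp and TGFB2 150 bp. HES1 and TGFB2 each rested on a single peak. A siCTL peak of 100 bp was listed in the promoter of LRP10 and none at HES1 and TGFB2. For enhancers contacted by these promoters, the paper reports more p300/CBP signal after siFra-1 for TGFB2, no change for CXCL8 and less for HES1. ASB1 (450 and 500 bp), ZNF114 (450 and 350 bp) and HMGA1 (150 and 200 bp) were the 3 genes of 14 other viewpoints, raised or lowered by Fra-1 without such a contact, and the peaks of HMGA1, an architectural chromatin protein, abutted without overlap. The study chose the viewpoints for their response to Fra-1 in the same cells, so their directions are not independent evidence.

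Markers of cell identity were checked against the label of the line. Of 12 basal B and mesenchymal breast cancer markers, 6 had a promoter peak, among them the intermediate filament gene VIM (750 and 650 bp), the urokinase gene PLAU (800 and 600 bp), CAV1 (400 bp in siFra-1 only) and FOSL1. Of 12 luminal markers, 3 had one, the adjacent keratin genes KRT8 and KRT18 with a shared 350 bp in siCTL and 400 bp in siFra-1, and TFF1 with 150 bp in siFra-1 only. None of 12 markers of blood, liver and neurons had a promoter peak in either list. The defining luminal genes ESR1, PGR, GATA3 and FOXA1 had none. Of all 20098 protein-coding genes, 1109 had a promoter peak.

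Signalling lists with inducible targets held many occupied promoters, in 42.1% of Hippo and 30.8% of NF-kB genes. The share was 25% for TGF-beta and BMP signalling and 19.2% for immediate early genes. Of all genes, 1.19% were in both lists, 2.5% in siCTL only and 1.83% in siFra-1 only. The gene lists were chosen with earlier results of these data known, so their shares are not independent evidence. Wider was also the commoner direction among all 240 genes in both lists, with 127 wider in siFra-1 and 64 narrower. Of 19 Hippo effectors and targets, 4 had peaks in both lists, 2 in siCTL only and 2 in siFra-1 only. Those in both were ANKRD1, the matricellular genes CCN1 (400 and 450 bp) and CCN2 (300 and 400 bp), and AJUBA (150 and 350 bp), and all were wider in siFra-1. Of 26 immediate early genes, 4 were in both lists, the ERK phosphatase gene DUSP6 (600 and 750 bp), DUSP1 (550 and 700 bp), IER3 (150 and 500 bp) and the zinc finger gene KLF6 (150 and 400 bp), again wider in siFra-1, and 1 was in siCTL only. Of 26 genes of the NF-kB pathway, 3 were in both (IKBKG, TNIP1 and CXCL8), 4 in siFra-1 only, with 300 bp at the chemokine gene CXCL2, and 1 in siCTL only. Of 28 genes of TGF-beta and BMP signalling, 1 was in both (ID1), 5 were in siFra-1 only, with 300 bp at ID3, 250 bp at the receptor gene TGFBR2 and 200 bp at SKIL, and 1 was in siCTL only. The 19 AP-1 and related factors held 3 occupied promoters, FOSL1, FOSL2 (350 bp in siFra-1 only), which encodes Fra-2, and MAF (150 bp in siCTL only).

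**Figure D2:**
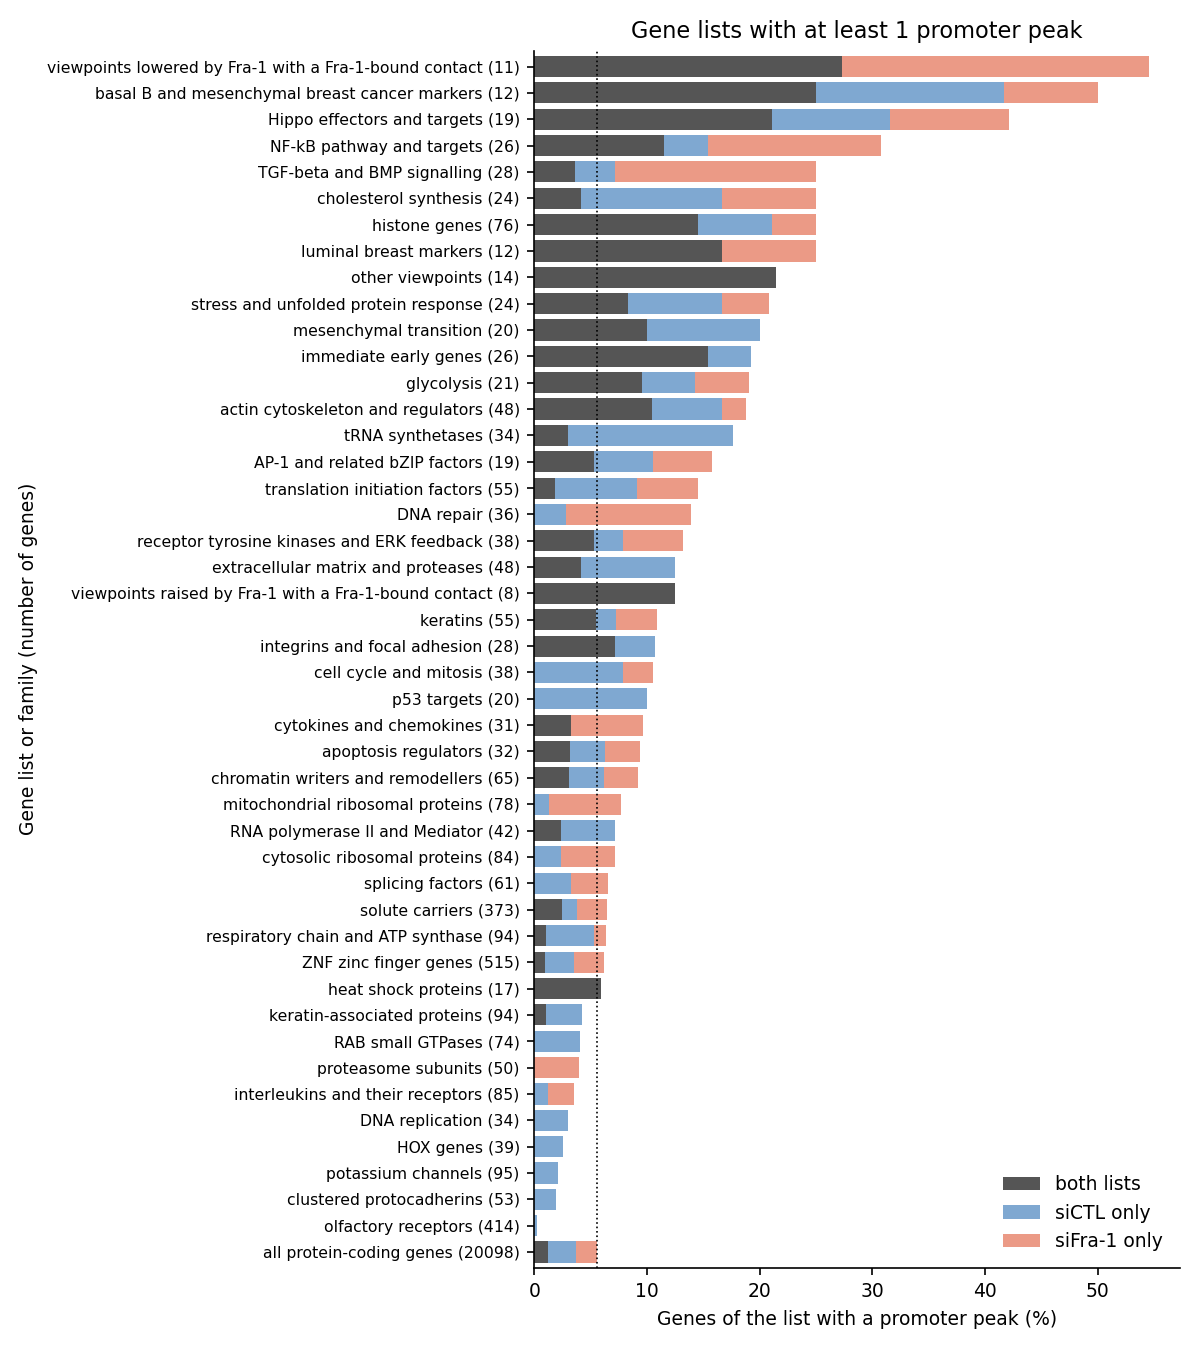
Share of the genes of each list or family (x axis, %) with a promoter peak in both lists (grey), siCTL only (blue) or siFra-1 only (red); the number of genes stands in brackets and the dotted line marks all 20098 protein-coding genes, 1109 of which had a promoter peak. The longest bars belong to lists of few genes, such as the 11 viewpoints lowered by Fra-1 with a Fra-1-bound contact and the 12 basal B markers. Among the lists with at least 1 promoter peak, which are those drawn, the olfactory receptors, with 1 of 414 genes, have the shortest bar.

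Of 48 genes of the actin cytoskeleton and its regulators, 5 were in both lists, among them TAGLN2, ACTN1 (350 and 450 bp), MYL12A (250 and 350 bp) and the bundling protein gene FSCN1 (150 and 350 bp), 3 in siCTL only and 1 in siFra-1 only. Of 48 extracellular matrix and protease genes, 2 were in both (PLAU and LAMB3, the latter with 150 and 500 bp), 4 in siCTL only, led by the urokinase receptor gene PLAUR with 400 bp, and none in siFra-1 only. The mesenchymal list had 2 of 20 genes in both, VIM and S100A4 (150 and 250 bp), and 2 in siCTL only, the repressor gene ZEB1 (300 bp) and the kinase gene AXL (200 bp). With 3 of 28, integrin and focal adhesion genes comprised ITGB1, PTK2 (150 and 300 bp) and CRK (300 bp in siCTL only). Of 38 receptor kinase and ERK feedback genes, 2 were in both lists, DUSP6 and the inhibitor SPRY4 (350 and 700 bp), 1 was in siCTL only (AXL) and 2 were in siFra-1 only, SPRED1 with 400 bp and SPRED2 with 150 bp. Of all genes, 1.19% were in both lists, 2.5% in siCTL only and 1.83% in siFra-1 only.

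Histone genes were the housekeeping family with the largest share of occupied promoters. Of 76 histone genes, 11 had peaks in both lists, 5 in siCTL only and 3 in siFra-1 only. The neighbours H2BC4 and H2AC6 shared 450 bp in siCTL and 700 bp in siFra-1, H1-2 had 450 bp in both and H4C11 400 bp in both. Histone genes are similar in sequence and lie close together, so 1 peak can serve several of them. Of 34 tRNA synthetase genes, 1 was in both (YARS1, 200 bp in each) and 5 were in siCTL only, with TARS1 and CARS1 at 200 bp and QARS1 at 150 bp. Of 78 mitochondrial ribosomal protein genes, 1 was in siCTL only and 5 were in siFra-1 only, of which MRPL46 and MRPS11 shared 1 peak of 200 bp. Of 36 DNA repair genes, 1 was in siCTL only (FANCD2, 150 bp) and 4 in siFra-1 only, led by BRCA1 with 200 bp, and of 38 cell cycle genes 3 were in siCTL only, led by TOP2A with 200 bp, and 1 in siFra-1 only. The counts in these families are low and rest on peaks of 150 or 200 bp. None of 33 autophagy and lysosome genes had a promoter peak. Of the 47 lists and families, 28 had a larger share of genes in both lists than all genes, 30 a larger share in siCTL only and 27 in siFra-1 only, so a share above that of all genes was common.

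Metabolic and stress genes were divided. Among genes of cholesterol synthesis, HMGCS1, an early enzyme of the pathway, had 550 bp in siFra-1 only, and PMVK 150 bp in siCTL only. Of 21 glycolysis genes, the lactate exporter gene SLC16A3 (450 and 550 bp) and GAPDH (250 and 200 bp) were in both, LDHA had 350 bp in siCTL only and HK1 200 bp in siFra-1 only. In the stress list, DDIT4, an inhibitor of mTORC1, went from 450 to 750 bp, and TRIB3, a pseudokinase, from 400 to 250 bp. The 20 p53 targets had 2 genes in siCTL only, GADD45A (250 bp) and BBC3 (150 bp), and none elsewhere. Of 373 solute carriers, 9 were in both lists, including the amino acid transporter gene SLC7A5 (450 and 700 bp), 5 in siCTL only and 10 in siFra-1 only (2.41%, 1.34% and 2.68%). Of 515 ZNF genes, 5 were in both, 13 in siCTL only and 14 in siFra-1 only (0.971%, 2.52% and 2.72%). The shares of all genes were 1.19%, 2.5% and 1.83%.

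Promoter peaks gathered at the TSS, more so in siFra-1 at the minimum width of 150 bp. The centre lay within 250 bp of the nearest protein-coding TSS for 25.1% (22.1 to 28.5) of siCTL and 32.1% (28.5 to 36.0) of siFra-1 promoter peaks, a difference of 6.96 points (2.03 to 11.9). Farther downstream the order was turned, with 38.1% of siCTL and 30.6% of siFra-1 peaks centred more than 250 bp inside the gene, and upstream the shares were 36.7% and 37.3%. Centres fell in exons for 33.1% and 30.1% of the peaks and in introns for 37.3% and 34.5%. A peak reached the promoters of 2 or more genes in 93 siCTL and 79 siFra-1 cases (13.3% of each list). At a minimum width of 250 bp the lists did not differ measurably in the share centred within 250 bp (0.737 points, -8.47 to 9.73).

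**Figure D3:**
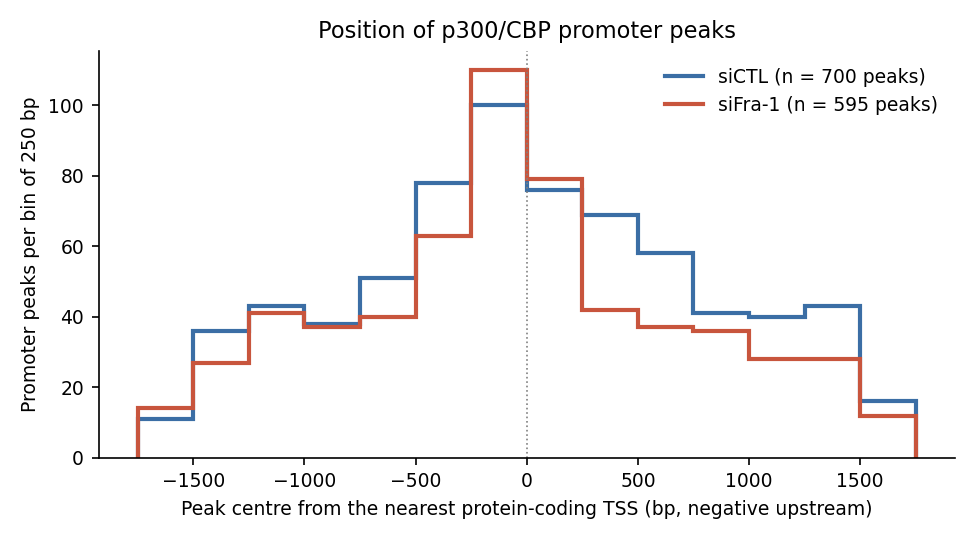
Number of promoter peaks per 250 bp (y axis) by the distance of the peak centre from the nearest protein-coding TSS (x axis, bp, negative upstream) for the 700 siCTL and 595 siFra-1 peaks. Both lists are highest in the 250 bp before the TSS, with 100 siCTL and 110 siFra-1 peaks, and the siCTL line stays above the siFra-1 line from 250 bp onwards inside genes.

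Overlap between the lists was no more frequent at promoters than elsewhere. Peaks sharing at least 1 bp were counted as shared. Of the 700 siCTL promoter peaks, 198 were shared (28.3%, 25.1 to 31.7), compared with 33.5% of other siCTL peaks and 33.3% of all siCTL peaks of this width, and the difference from other peaks was -5.24 points (-8.55 to -1.70). Of the 595 siFra-1 promoter peaks, 198 were shared (33.3%, 29.6 to 37.2), compared with 37.9% of other siFra-1 peaks and 37.7% of all siFra-1 peaks of this width, a difference of -4.61 points (-8.39 to -0.625). These differences were small and lost their sign or their interval without 0 under several other settings. With other peaks weighted to the widths of promoter peaks, the siFra-1 difference was 0.0744 points. The shared fraction was larger among wider peaks, rising in siCTL from 11.9% of promoter peaks at 150 bp to 57.1% at 250 to under 350 bp and 83.3% at 500 bp and over, and in siFra-1 from 13.3% through 33.3% to 76.1%. Peaks centred within 250 bp of the TSS were shared more often than those farther off, 42.0% of them in siCTL (18.4 points more, 10.4 to 26.5) and 39.3% in siFra-1 (8.82 points more, 0.706 to 17.1).

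**Figure D4:**
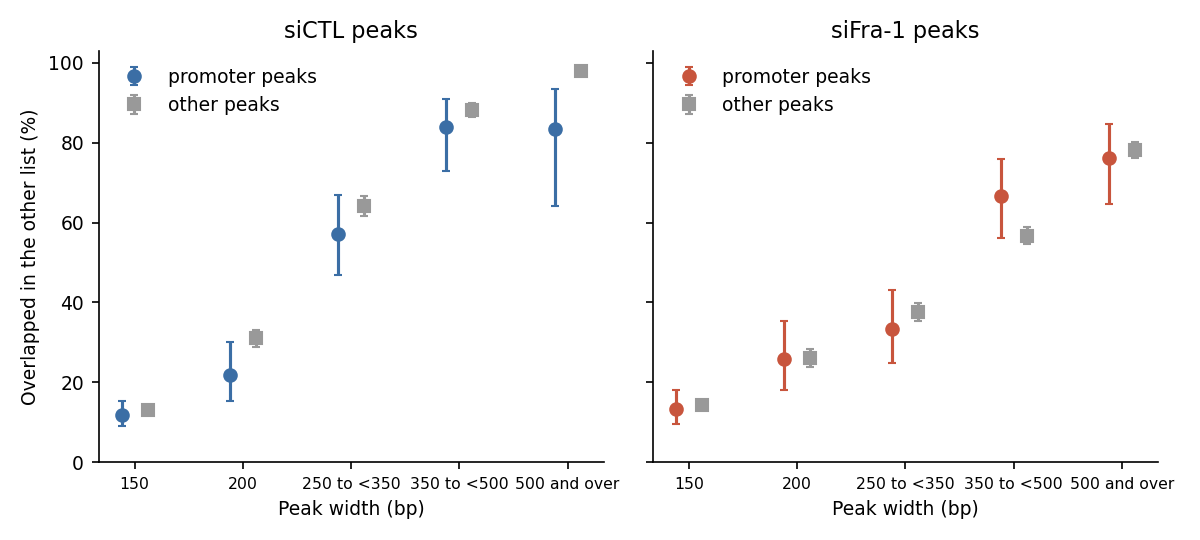
Share of peaks overlapped in the other list (y axis, %) by peak width (x axis, bp) for promoter peaks (circles) and other peaks (grey squares) of siCTL and siFra-1; bars are 95% Wilson intervals. The share of siCTL promoter peaks that were overlapped rose from 11.9% at 150 bp to 83.3% at 500 bp and over, against 13.0% and 98.0% of other peaks, and in siCTL the promoter circles lie below the squares at each width.

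Promoter peaks were richer in GC and CpG than other peaks. In the central 200 bp the median GC content was 56.8% in siCTL and 57% in siFra-1, against 46% and 45.5% for other peaks, and the median ratio of observed to expected CpG was 0.496 and 0.491, against 0.212 and 0.226. Taking at least 50% GC and a CpG ratio of at least 0.6 as CpG-rich, 229 siCTL (32.7%) and 195 siFra-1 promoter peaks (32.8%) qualified, and 2.72% and 2.50% of other peaks. The lists did not differ measurably in this (0.0588 points, -5.04 to 5.19). The share was highest near the TSS, at 51.1% of siCTL and 47.6% of siFra-1 peaks centred within 250 bp. Judged by the DNA around the TSS itself, from 250 bp before to 50 bp after it, 50% (43.7 to 56.3) of the 240 genes in both lists had a CpG-rich promoter, compared with 64.7% (60.5 to 68.8) of siCTL-only genes, 63.5% (58.4 to 68.3) of siFra-1-only genes and 54.6% (53.9 to 55.3) of genes without a peak. The genes in both lists were 14.7 points below the siCTL-only genes (difference -14.7, -22.2 to -7.15) and 13.5 points below the siFra-1-only genes (difference -13.5, -21.4 to -5.44). Their difference from genes without a peak was -4.57 points, with an interval that held 0 (-10.9 to 1.74). With all peaks down to 100 bp the differences from siCTL-only and siFra-1-only genes were 0.491 and 1.75 points, with intervals that held 0.

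Motifs were searched on both strands, for the shares in the central 200 bp of each peak. For the peaks of named genes the whole peak was searched, so those matches are not comparable with the shares. AP-1 was matched as TGAGTCA, which reads TGACTCA on the other strand. The motifs typical of promoters were SP/KLF with the letters GGGCGG, ETS with the letters CCGGAAG, NRF1 with GCATGCGC, YY1 with the letters AAGATGG, CRE with TGACGTCA and the E-box with the letters CACGTG. NFY was matched as CCAATCA and, in a second form of the box, as CCAATGG. TEAD was matched by the letters GGAATG, RUNX by the letters TGTGGT, C/EBP by TTGCNNAA, NF-kB by GGGNNTTCC, the TATA box by the letters TATAAA and CTCF by AGGGGGCG, which can share bases with SP/KLF. As a background, 200 bp centred on the TSS of all protein-coding genes held AP-1 in 2.63%, CRE in 1.87%, ETS in 10.1%, SP/KLF in 46.6%, NFY in 9.86%, NRF1 in 2.98%, YY1 in 4.64%, E-box in 5.87%, TEAD in 7.72%, RUNX in 7.98%, C/EBP in 5.08%, NF-kB in 4.58%, TATA in 7.09% and CTCF in 7.59%. Shorter motifs match more often by their length alone, so shares are compared within a motif only.

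With promoters set by the outermost TSS, AP-1 matches were less frequent in promoter peaks than in other peaks. They were more frequent than at promoters at large. They occurred in 76 of 700 siCTL (10.9%, 8.76 to 13.4) and 71 of 595 siFra-1 promoter peaks (11.9%, 9.57 to 14.8), which was 4.42 (difference -4.42, -6.61 to -1.83) and 6.05 points (difference -6.05, -8.53 to -3.12) below the other peaks of each list. In the same windows moved by 2 kb the shares were 3.86% and 3.70%. TEAD and RUNX were likewise rarer in promoter peaks than elsewhere, TEAD with 15.1% against 19.8% in siCTL and 18.0% against 26.6% in siFra-1. SP/KLF was more frequent than in other peaks, in 22% of siCTL promoter peaks against 5.48% of other peaks and in 25.9% against 6.05% in siFra-1, and ETS (5.43% against 1.31% in siCTL) and NF-kB (6.29% against 2.90%) were too. SP/KLF and ETS stayed below their shares at the TSS of all genes, 46.6% and 10.1%, although most promoter peaks were centred farther than 250 bp from a TSS. Of the peaks centred within 250 bp, 35.8% in siCTL and 28.3% in siFra-1 held SP/KLF. Intervals of the difference from other peaks lay on 1 side of 0 for 9 of the 14 motifs in siCTL and 12 of 14 in siFra-1. With TSSs of every transcript both AP-1 intervals held 0, at -0.509 points (-2.25 to 1.38) in siCTL and -1.52 (-3.51 to 0.645) in siFra-1. At a minimum width of 250 bp the AP-1 differences were -5.72 (-11.9 to 1.40) and -5.62 (-9.99 to -0.314).

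Shared promoter peaks held more AP-1 and TEAD matches than unshared ones. AP-1 occurred in 45 of 198 shared (22.7%, 17.4 to 29.1) and 31 of 502 unshared siCTL peaks (6.18%, 4.38 to 8.63), a difference of 16.6 points (10.7 to 23.1), and in 39 of 198 shared (19.7%) and 32 of 397 unshared siFra-1 peaks (8.06%), a difference of 11.6 points (5.81 to 18.1). TEAD occurred in 24.2% of shared and 11.6% of unshared siCTL peaks (12.7 points, 6.43 to 19.6) and in 25.8% and 14.1% in siFra-1 (11.7 points, 4.91 to 18.9). RUNX also differed in siCTL (10.3 points, 4.78 to 16.7), while its siFra-1 interval held 0 (3.07 points, -3.05 to 9.83). Outside promoters the order was the same, with AP-1 in 28.2% of shared and 8.76% of unshared siCTL peaks and 28.2% and 11.7% in siFra-1. TEAD stood there at 32.0% and 13.6% in siCTL and at 32.4% and 23.1% in siFra-1. Shared promoter peaks were also wider, 62.6% of siCTL and 70.7% of siFra-1 ones being at least 250 bp against 10.6% and 27.7% of unshared ones. Once unshared peaks were weighted to the widths of shared ones, the siCTL differences were 3.52 points for AP-1 (-7.55 to 14.6) and 2.47 points for TEAD (-8.23 to 13.2), while in siFra-1 they were 9.28 (1.61 to 16.9) and 9.82 points (1.23 to 18.4). CpG-rich peaks were about as frequent among shared as unshared ones, 30.8% and 33.5% in siCTL (-2.66 points, -10.0 to 5.18).

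AP-1, the motif that Fra-1 binds, occurred in 6.18% of the peaks listed for siCTL only and 8.06% of those for siFra-1 only, a difference whose interval held 0 (-1.89 points, -5.46 to 1.48). It turned to 10.3 points (-0.146 to 22.1) at a minimum width of 250 bp. The windows moved by 2 kb had AP-1 matches in 4.38% and 3.78%. RUNX was less frequent in siCTL-only peaks (8.37% against 15.1%, -6.75 points, -11.1 to -2.54), as were C/EBP (6.37% against 11.1%, -4.71 points, -8.63 to -1.02) and SP/KLF (20.1% against 25.7%, -5.57 points, -11.2 to -0.0681), and the other 11 motifs had intervals that held 0. Unshared peaks outside promoters had the same order, with RUNX in 16.2% of siCTL and 22.5% of siFra-1 peaks and C/EBP in 9.56% and 13.4%. For RUNX and C/EBP the moved windows of siFra-1-only promoter peaks had 14.4% and 9.32%, near the shares of the peaks themselves. Those of siCTL-only promoter peaks had 13.3% and 8.76%, above the peaks' own shares. The RUNX difference was -0.833 points (-2.84 to 1.08) with no minimum width and 0 (-10.6 to 12.1) at 250 bp. The C/EBP difference was -1.23 points (-3.00 to 0.420) with no minimum width, -6.85 (-13.0 to 0.858) at 250 bp and -1.60 (-6.91 to 3.38) with a 1 kb window. With that window the SP/KLF difference turned to 1.08 points (-7.17 to 9.15).

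**Figure D5:**
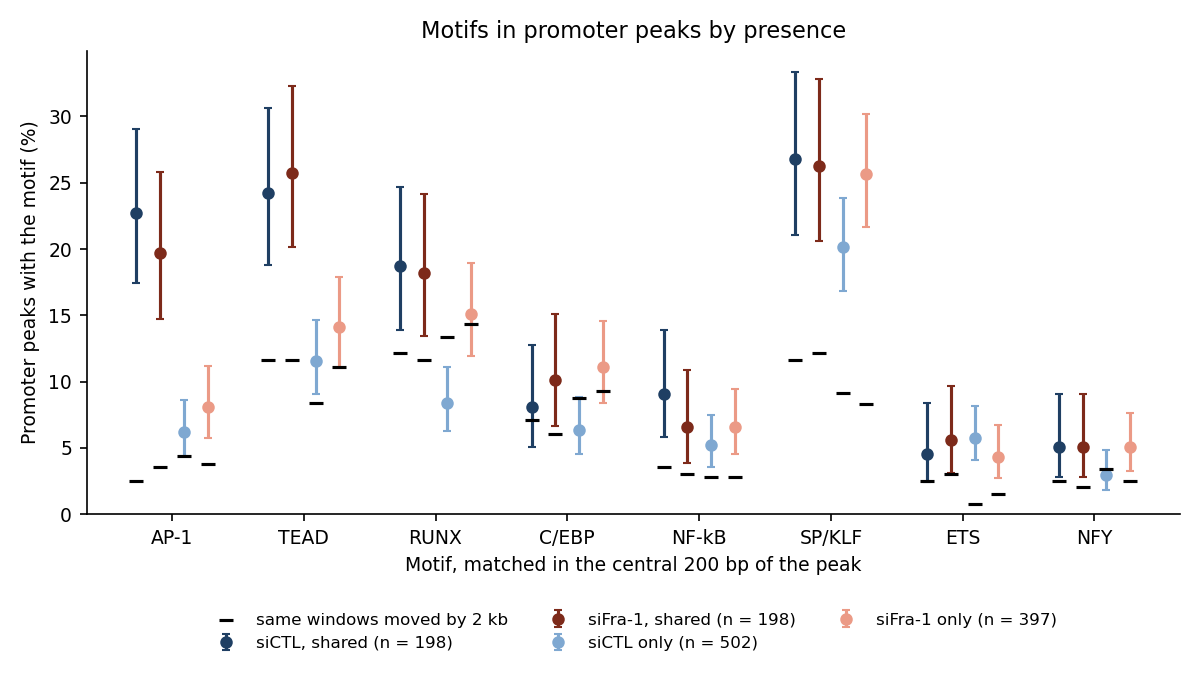
Share of promoter peaks with a motif in the central 200 bp (y axis, %) for 8 motifs (x axis), in peaks shared between the lists and peaks of siCTL only or siFra-1 only; bars are 95% Wilson intervals and black dashes the same windows moved by 2 kb. AP-1 stands at 22.7% and 19.7% in shared peaks against 6.18% and 8.06% in peaks of 1 list, and TEAD shows the same order.

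Promoters differed in the peaks around them. Within 50 kb of the TSS and outside promoters, genes in both lists had a mean of 1.55 siCTL and 1.59 siFra-1 peaks of at least 150 bp, siCTL-only genes 1.04 and 0.831, siFra-1-only genes 1.18 and 0.973, and genes without a promoter peak 0.528 and 0.390. Counting each peak once per class, the ratio of siFra-1 to siCTL peaks was 1.02 (0.871 to 1.19) around genes in both lists, 0.806 (0.695 to 0.935) around siCTL-only genes, 0.858 (0.737 to 0.997) around siFra-1-only genes and 0.786 (0.755 to 0.819) around genes without a peak. Around siFra-1-only genes, too, there were fewer siFra-1 than siCTL peaks outside promoters. At a minimum width of 250 bp the 3 ratios of occupied classes were 1.46, 1.24 and 1.64.

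Chromosomes 5, 19 and 20 had the highest shares of genes with a promoter peak, 8.82%, 8.58% and 8.96%, and chromosome X the lowest, 0.690%. On chromosome 20 there were 42 siCTL and 15 siFra-1 promoter peaks, a ratio of 0.357 (0.184 to 0.657), with 0.716 (0.635 to 0.807) for the other peaks there, and on chromosome 19 there were 83 and 51, a ratio of 0.614 (0.425 to 0.881), with 0.737 (0.641 to 0.848) for the others. On the remaining 21 chromosomes the interval of the ratio held 1. Peaks near large assembly gaps, which made up 7.29% of siCTL and 10.9% of siFra-1 peaks outside promoters, were rare here, with 3 and 2 promoter peaks.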

How the data were processed

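The data were p300/CBP ChIP-seq peak lists of siCTL and siFra-1 MDA-MB-231 cells, 1 pooled library each. The deposited lists give nothing but peak positions, in bp. The authors aligned the reads to hg19 (their methods name BWA-backtrack, the submitters' processing notes Bowtie2), processed them with PASHA in 50 bp bins with scaling and background subtraction, and called peaks by thresholding in the Integrated Genome Browser, at a value of 25 with gaps of up to 50 bp. One processing parameter, whose meaning is not stated, differed between the lists. A difference in scaling or complexity would therefore change peak numbers and widths as occupancy would. Printed starts are BED starts raised by 1, which assumes that the authors counted starts from 0.

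Genes, exons and TSSs were taken from GENCODE release 44 lifted to GRCh37, and the gene-level TSS is the outermost annotated start. Overlaps, sequence features and motifs were computed with scipy 1.17.1, pandas 2.3.3, pysam 0.24.0 and numpy 2.4.6 under Python 3.11.15, tested on simulated data and against bedtools 2.31.1, and plotted with matplotlib 3.10.9. With 1 library per condition no test was run and no p-value is given: shares have Wilson, differences Newcombe and ratios Clopper-Pearson intervals, and width-weighted differences normal-approximation intervals. Depth is unknown, so its precision could not be stated.

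Named genes were the 8 with the largest summed promoter peak width in each class, the 5 largest gains and losses, the viewpoint genes and up to 4 members of each list, widest first. The members, the 28 gene lists and 19 symbol families were chosen with earlier results of these data known. Alternatives were no minimum width or 250 bp, windows of 1 and 5 kb, TSSs of every transcript, leaving out peaks within 1 Mb of assembly gaps of at least 1 Mb, presence or overlap judged otherwise, weighting by width and motifs in the whole peak. The nearby peaks, shared against unshared motifs, CpG-rich gene promoters and their alternatives were added after the data were seen.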

Additional observations from a re-analysis of the deposited data

How the results depend on the processing

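With no minimum width, genes in both lists, siCTL only and siFra-1 only numbered 762, 2453 and 1093, the overlap differences between promoter and other peaks were 2.42 points in siCTL and 1.33 in siFra-1, genes in both lists differed in CpG-rich promoters by 0.491 points from siCTL-only and 1.75 from siFra-1-only genes, and the ratio of nearby peaks around genes in both was 0.538. With a minimum of 250 bp the number ratio was 1.41, the gene counts 118, 75 and 145 and the siFra-1 overlap difference -0.0754. The AP-1 difference from other peaks was then -5.72 in siCTL, AP-1 in siCTL-only minus siFra-1-only peaks 10.3 and the difference in position 0.737. All of these intervals held 0. At that width 14 and 15 lists exceeded the siCTL-only and siFra-1-only shares of all genes. There the nearby ratios were 1.46 (both), 1.24 and 1.64, the shared minus unshared siCTL differences 5.56 (AP-1) and 9.26 (TEAD), the CpG differences -10.2 and -5.96, TATA in siCTL 0.105 and NRF1 in siFra-1 -0.175. With a 1 kb window the number ratio was 0.888, the counts 134, 261 and 215, the overlap differences -0.471 and 0.499, SP/KLF in siCTL-only minus siFra-1-only peaks 1.08, AP-1 in shared minus unshared siFra-1 peaks 5.13, and the nearby ratios 0.931 (both) and 0.919 (siFra-1 only). With TSSs of every transcript the counts were 567, 908 and 610, the overlap differences -2.01 and -0.0821, and the nearby ratios 0.982 and 0.920. The AP-1 differences from other peaks were then -0.509 and -1.52, both with intervals that held 0. With presence judged by peaks of any width, 469 genes were in both and 238 in siFra-1 only, and the siCTL overlap difference was -3.53 and the CpG differences -6.43 and -3.77. The siCTL overlap difference was -3.23 without peaks near large gaps. Asking for 50% of both peaks gave -2.06 in siCTL and -2.06 in siFra-1, and weighting by width 0.0744 in siFra-1. Weighting unshared peaks to the widths of shared ones gave 3.52 for AP-1 and 2.47 for TEAD in siCTL. The cause of these changes was not tested, beyond the numbers of peaks each setting leaves. Of the values that answer a comparison, 139 kept their direction and their side of the interval or count limit, 24 no longer had an interval without 0, 16 moved, 13 turned and 1 gained such an interval. Of the values of single motifs these were 143 kept, 27 lost and 3 turned. None of the 35 genes named for their width changed direction, but widths moved at 26 of them with a 1 kb window, 16 with no minimum, 16 with 250 bp, 9 with every transcript's TSS and 8 with a 5 kb window. A stricter height threshold could not be run because the lists give no height. No paired analysis was possible because each condition has 1 library, and without replicates or depth no smaller difference could be resolved.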
